A study of Mus with 21 samples.

Results

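Adipocyte and lipid synthesis genes were followed through skin wounds of mice on day 4, as 33 genes chosen by symbol for their known place in fat cells, lipid storage or fatty acid synthesis, of 18806 genes in the count files. All 33 passed the filter on low counts and were tested among 15811 genes. RNA was sequenced from 21 wound samples in 7 groups of 3 libraries, in female wild-type C57BL/6 mice that were 8 weeks old at purchase. Full-thickness round wounds, 8 mm across, were punched on the left and right of the back, splinted and covered with a transparent dressing. The control group received no hydrogel scaffold. The other 6 groups received a scaffold of GelMA, a methacrylated gelatin that sets to a hydrogel, prepared at pH 6.4, 7.4 or 8.4 and loaded with acidic (aFGF) or basic (bFGF) fibroblast growth factor. They are called here by pH and factor, as in 6.4/aFGF. No group had a hydrogel without growth factor, so hydrogel, growth factor and pH cannot be told apart in a comparison with the control. The labels call the replicates biological, and the study describes whole wounds taken with a margin of surrounding skin for histology. Whether the RNA samples held the same margin was not given in the sources used here.

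White adipocytes lie in a layer under the dermis and around hair follicles. They store fatty acids as triglyceride in a single large droplet coated with perilipins and CIDE proteins, release them again through lipases, and secrete adipokines such as adiponectin and leptin. The transcription factor PPARγ, with C/EBPα, maintains their gene programme, and carbohydrate-responsive and sterol-responsive factors switch on the enzymes that build fatty acids from acetyl-CoA. In skin these enzymes also work in the lipid-secreting cells of sebaceous glands, and brown fat burns fatty acids for heat through UCP1.

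The libraries held 34362558 to 37817833 counts on genes, so 3 counts, the number that a count of 0 still allows, came to at most 0.0873 CPM (counts scaled to a common library size). Levels below are TMM-normalized CPM, which compare libraries for one gene. Members are ranked against each other by level only as FPKM, which is also divided by gene length. The highest genes of marker lists are named by CPM, and ratios to Adipoq are ratios of CPM, so neither allows for gene length. Markers of keratinocytes, the defining cells of skin epidermis, were present in every library, with Krt5, Krt14, Krt1 and Krt10 summing to 1702 to 4763 CPM. Earlier results of these data had set 3 libraries apart for holding genes of other tissues, 7.4/aFGF replicate 3, 8.4/aFGF replicate 2 and 8.4/bFGF replicate 2, and each comparison was also made without them. Without them edgeR called 0 members in every comparison, as with all libraries. The tissue is a mixture, so fewer cells of a type and less RNA per cell cannot be told apart.

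The genes took very unequal shares of the libraries, and the widest gap lay inside the control group. Together the 33 genes took 3.65% of all counts in control replicate 1, 1.92% in control replicate 3 and 0.367% in control replicate 2. With aFGF they took 1.47%, 1.47% and 0.595% at pH 6.4, 0.795%, 0.670% and 0.491% at pH 7.4, and 0.824%, 0.480% and 0.541% at pH 8.4. With bFGF they took 0.646%, 0.227% and 0.348% at pH 6.4, 0.599%, 0.517% and 2.91% at pH 7.4, and 2.29%, 0.917% and 0.377% at pH 8.4. Control replicate 2 thus lay below 16 of the 18 hydrogel libraries, while the other control libraries, 7.4/bFGF replicate 3 and 8.4/bFGF replicate 1 lay above the rest. The highest library of a gene was control replicate 1 for 20 members, 8.4/bFGF replicate 1 for 5 and 7.4/bFGF replicate 3 for 4. The lowest was 6.4/bFGF replicate 2 for 24 members.

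**Figure D1:**
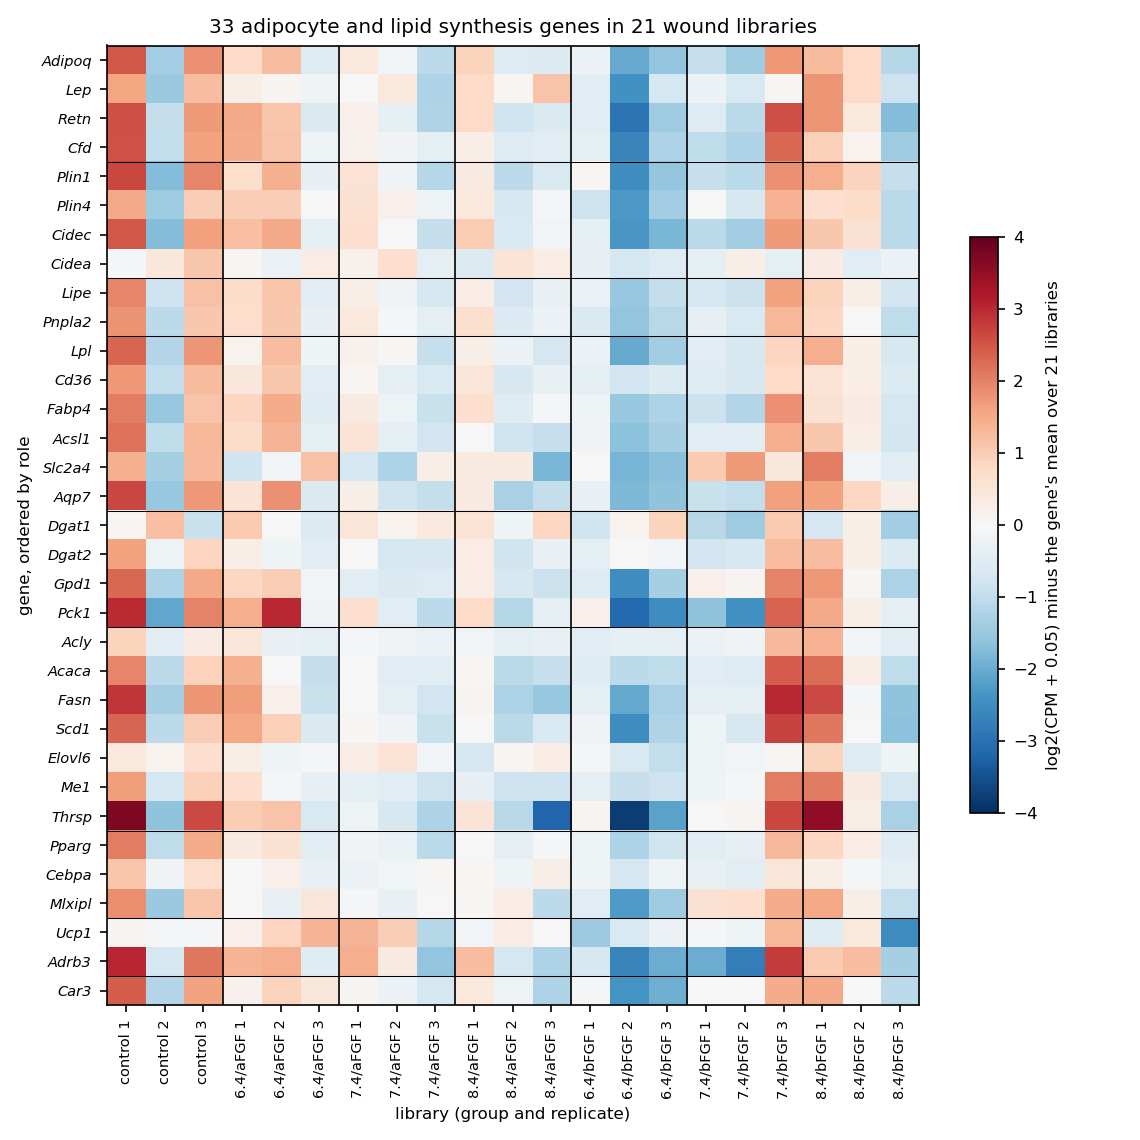
Heat map of the 33 genes (rows, ordered by role) in the 21 libraries (columns, by group and replicate). Colour gives log2(CPM + 0.05) minus the gene's mean over the 21 libraries, from blue (lower) to red (higher). Control replicates 1 and 3 are red for most genes and control replicate 2 blue, and 6.4/bFGF replicate 2 is the lowest library of 24 genes.

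The secreted factors had their highest group mean in the control except for Lep, and all had their lowest in 6.4/bFGF. Adipoq, which encodes adiponectin and marks mature adipocytes, had 673, 47.0 and 431 CPM in control replicates 1, 2 and 3. With aFGF it had 207, 286 and 85.6 CPM at pH 6.4, 164, 113 and 58.7 at pH 7.4, and 224, 84.9 and 83.3 at pH 8.4. With bFGF it had 104, 30.0 and 40.2 CPM at pH 6.4, 63.8, 45.2 and 404.5 at pH 7.4, and 291, 204 and 54.9 at pH 8.4. The 3 control libraries thus covered nearly the whole range of the series, with 14.3 times as much Adipoq in replicate 1 as in replicate 2, and control replicate 3 lay above every hydrogel library. Cfd, which encodes the complement protease adipsin, ranged from 110 to 3959 CPM and Retn, which encodes resistin, from 6.94 to 326 CPM. Lep, the gene of the satiety hormone leptin, had a narrower range of 4.72 to 88.2 CPM.

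Among the lipid droplet genes, Plin1, whose product perilipin 1 coats the droplet and holds back lipolysis, followed Adipoq closely. It had 361, 17.1 and 221 CPM in the control replicates. With aFGF it had 92.2, 154 and 45.0 CPM at pH 6.4, 85.1, 51.5 and 25.8 at pH 7.4, and 73.8, 27.6 and 37.7 at pH 8.4. With bFGF it had 59.9, 10.2 and 19.6 CPM at pH 6.4, 30.0, 26.8 and 204 at pH 7.4, and 156, 105 and 30.3 at pH 8.4. As for Adipoq, the control covered nearly the whole range and every hydrogel library lay below control replicate 3. Cidec, which promotes the growth of single large droplets, ranged from 32.0 to 897 CPM and Plin4, another coat protein, from 30.9 to 435 CPM. Cidea, a droplet protein of brown fat and of sebocytes, stayed within 5.93 to 20.5 CPM and did not share the pattern, with 0.680 times as much in control replicate 1 as in control replicate 2.

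The lipases that break triglyceride down were Pnpla2 (adipose triglyceride lipase), which ranged from 75.2 to 772 CPM, and Lipe (hormone-sensitive lipase), which ranged from 44.5 to 490 CPM. For both, control replicate 1 was the highest and 6.4/bFGF replicate 2 the lowest library.

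The uptake and transport group held the most abundant member per length. Fabp4, a fatty acid carrier of adipocytes that macrophages and endothelium also express, ranked highest of the 33 by mean FPKM. It had 3086, 259 and 1645 CPM in the control replicates. With aFGF it had 1339, 2083 and 529 CPM at pH 6.4, 951, 653 and 403 at pH 7.4, and 1190, 536 and 712 at pH 8.4. With bFGF it had 658, 263 and 314 CPM at pH 6.4, 406, 328 and 2640 at pH 7.4, and 1140, 933 and 460 at pH 8.4. Its lowest library of all was control replicate 2, and 2 hydrogel libraries exceeded control replicate 3.

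Lpl encodes the lipase that frees fatty acids from circulating lipoproteins. It had 1897, 170 and 1293 CPM in the control replicates. With aFGF it had 417, 883 and 335 CPM at pH 6.4, 427, 396 and 199 at pH 7.4, and 449, 324 and 239 at pH 8.4. With bFGF it had 320, 93.3 and 145 CPM at pH 6.4, 286, 244 and 688 at pH 7.4, and 1041, 453 and 243 at pH 8.4. All 18 hydrogel libraries lay below control replicate 3 and 16 lay above control replicate 2. Of the remaining transport genes, the fatty acid receptor Cd36 ranged from 155 to 1014 CPM, and Acsl1, which activates fatty acids with coenzyme A, from 40.2 to 557 CPM. The glycerol channel gene Aqp7 was low, at 0.768 to 18.0 CPM. Slc2a4, which encodes the insulin-responsive glucose transporter of fat and muscle, ranged from 6.42 to 97.6 CPM and was highest in 8.4/bFGF replicate 1.

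Genes of glycerol and triglyceride synthesis did not move as a block. Gpd1, which makes glycerol 3-phosphate, ranged from 21.4 to 591 CPM and Pck1, which feeds the same pool from pyruvate, from 4.06 to 288 CPM. Dgat2, the acyltransferase that finishes newly made triglyceride, had a range of 82.2 to 436 CPM. Its counterpart Dgat1 had 142, 310 and 73.2 CPM in the control replicates and was thus highest in the library where the adipocyte genes of the control were lowest. Across the hydrogel groups Dgat1 ranged from 50.02 CPM in 7.4/bFGF replicate 2 to 278 CPM in 7.4/bFGF replicate 3.

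In fatty acid synthesis, Fasn encodes the synthase that builds palmitate. It had 3824, 210 and 1779 CPM in the control replicates. With aFGF it had 1666, 600 and 282 CPM at pH 6.4, 512, 404 and 307 at pH 7.4, and 568, 224 and 182 at pH 8.4. With bFGF it had 397, 127 and 213 CPM at pH 6.4, 397, 395 and 4236 at pH 7.4, and 3246, 504 and 172 at pH 8.4. Above all other libraries stood control replicates 1 and 3, 7.4/bFGF replicate 3 and 8.4/bFGF replicate 1.

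Scd1, the desaturase that makes monounsaturated fatty acids, had 8321, 793 and 3236 CPM in the control replicates. In the aFGF groups it had 4810, 3188 and 1094 CPM at pH 6.4, 1698, 1504 and 887 at pH 7.4, and 1623, 780 and 1086 at pH 8.4. In the bFGF groups it had 1490, 294 and 719 CPM at pH 6.4, 1469, 1062 and 10790 at pH 7.4, and 7030, 1613 and 524 at pH 8.4. Like Fasn it was highest in 7.4/bFGF replicate 3, above both high control libraries. Acaca, which makes malonyl-CoA, was highest there too and ranged from 39.7 to 452 CPM. Acly, which makes cytosolic acetyl-CoA, varied less, from 199 to 711 CPM, as did the elongase gene Elovl6, from 49.6 to 182 CPM. Me1, an enzyme that supplies NADPH, is given by library because results below turn on it, as is Dgat1 in part, and both were picked after their values were seen. It had 316, 61.4 and 193 CPM in the control replicates. The aFGF libraries had 158, 97.6 and 79.5 CPM at pH 6.4, 76.8, 74.9 and 56.4 at pH 7.4, and 79.2, 56.5 and 55.9 at pH 8.4. The bFGF libraries had 77.7, 53.2 and 56.3 CPM at pH 6.4, 89.3, 94.7 and 415 at pH 7.4, and 420, 130 and 62.1 at pH 8.4. At pH 7.4 every bFGF library lay above every aFGF library, and at pH 6.4 every aFGF library above every bFGF library. Thrsp, a lipogenic regulator that responds to thyroid hormone and carbohydrate, had the widest ratio of highest to lowest library among the members listed above 0 everywhere, from 2.69 CPM in 6.4/bFGF replicate 2 to 504 CPM in control replicate 1 (187-fold).

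The transcription factor Pparg, the main regulator of adipocyte identity, had 72.9, 8.79 and 49.6 CPM in the control replicates. In the aFGF groups it had 22.6, 27.0 and 12.8 CPM at pH 6.4, 16.1, 14.9 and 8.46 at pH 7.4, and 17.5, 13.9 and 17.0 at pH 8.4. In the bFGF groups it had 15.5, 7.49 and 10.3 CPM at pH 6.4, 12.8, 14.1 and 44.0 at pH 7.4, and 31.3, 21.7 and 12.4 at pH 8.4. All hydrogel libraries lay below control replicate 3. Cebpa, its partner, had the narrowest ratio of all members, from 133 to 460 CPM (3.45-fold), and is also expressed in keratinocytes and myeloid cells. Mlxipl, which encodes the carbohydrate sensor ChREBP, was low at 1.23 to 22.0 CPM.

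Thermogenic fat was barely represented. Ucp1, which defines brown and beige adipocytes, had 0.264, 0.229 and 0.221 CPM in the control replicates. In the aFGF groups it had 0.282, 0.470 and 0.694 CPM at pH 6.4, 0.684, 0.523 and 0.0806 at pH 7.4, and 0.218, 0.303 and 0.243 at pH 8.4. In the bFGF groups it had 0.0565, 0.137 and 0.196 CPM at pH 6.4, 0.227, 0.205 and 0.678 at pH 7.4, and 0.158 and 0.335 in replicates 1 and 2 at pH 8.4. In 8.4/bFGF replicate 3 it had 0 counts, and it had at most 25 counts in any library. Adrb3, the β3-adrenergic receptor that triggers lipolysis in white and brown fat, ranged from 1.46 to 83.3 CPM and was highest in control replicate 1. Car3, a carbonic anhydrase abundant in adipocytes and muscle, ranged from 156 to 4394 CPM and ranked 3 by mean FPKM, after Fabp4 and Cfd and before Scd1 and Adipoq.

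**Figure D2:**
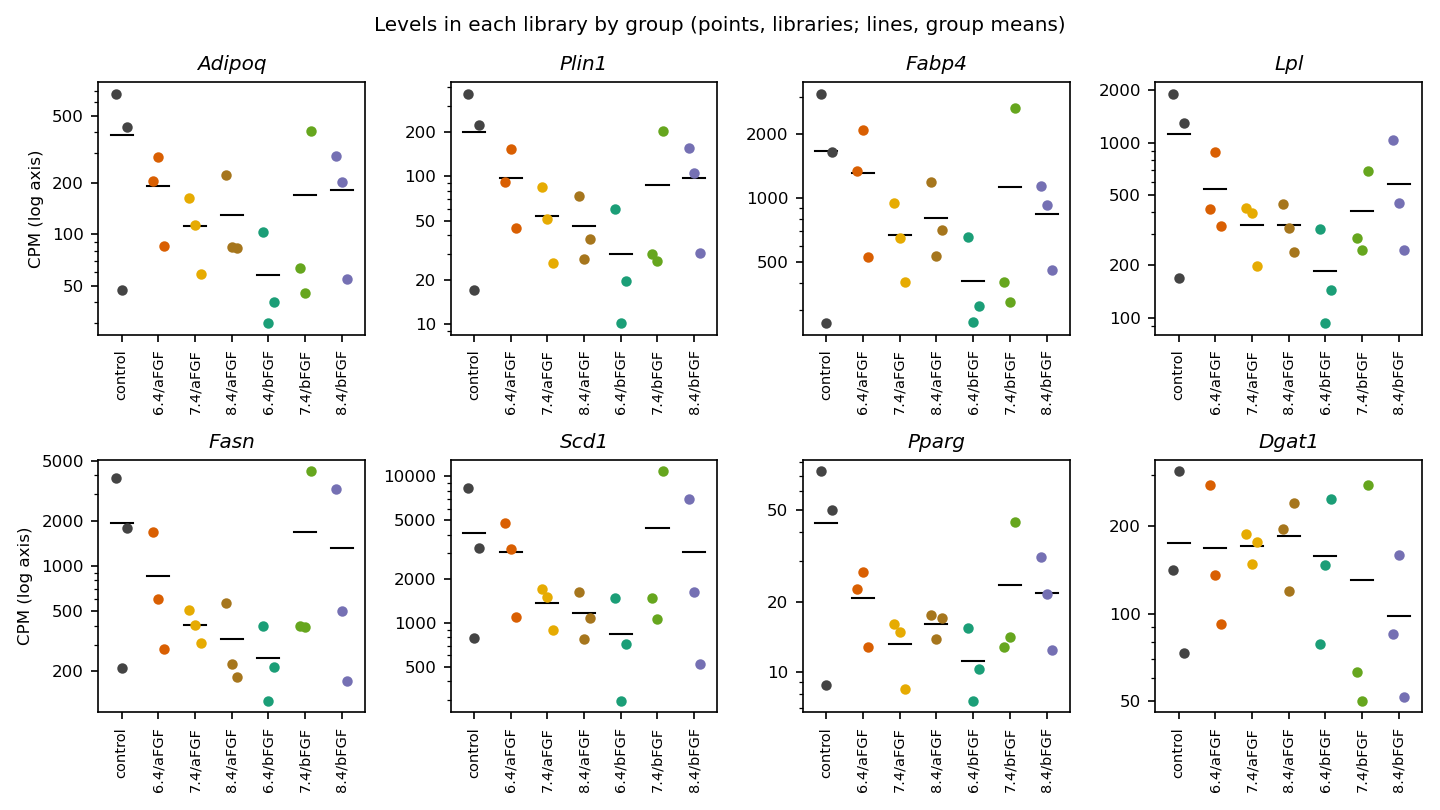
Levels of 8 genes in each library, by group, as TMM-normalized CPM on a log axis. Points are the 3 libraries of a group and lines their means. Adipoq, Plin1, Fabp4, Lpl, Fasn, Scd1 and Pparg have 2 high and 1 low control library and a single high library in 7.4/bFGF, while Dgat1 is highest where the others are low in the control, at 310 CPM.

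Members varied far more between replicates than most genes did. The pooled SD within groups on the log2 scale had a median of 1.01 over the members, a 2.02-fold spread, against 0.288 over all genes tested, a 1.22-fold spread. All 33 members lay above the median of all genes, 19 above the 90th percentile and 11 above the 95th. The differences between the 7 groups accounted for 21.4% (Dgat1) to 42.8% (Plin4) of a member's variance on the log2 scale. Over the members the median was 33.05%, and over all genes tested it was 38.98%. A large part of such a share arises without any group difference, since 7 group means are fitted to 21 libraries. Within the control the ratio of the highest to the lowest library had a median of 9.06 over the members, against 4.36 in 8.4/bFGF, 4.08 in 7.4/bFGF, 3.16 in 6.4/bFGF, 2.91 in 6.4/aFGF, 2.16 in 8.4/aFGF and 1.91 in 7.4/aFGF.

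The members rose and fell together from library to library. Over the 21 libraries, 22 of the other 32 members had a Spearman correlation with Adipoq above 0.8 and 17 above 0.9, against 1.38% and 0.595% of 15810 genes, among which the median was 0.0130. The closest were Lipe (Pearson r = 0.978, Spearman rho = 0.979), Cidec (r = 0.987, rho = 0.978) and Plin1 (r = 0.983, rho = 0.969). Each had a permutation p of 1e-05, the smallest that 100000 permutations can give, and a Benjamini-Hochberg adjusted p over the 15810 relations of 0.000653 for r and 0.000941 for rho. They did not rest on the extreme libraries, since without control replicates 1 and 3, the libraries farthest from the median of Adipoq, r was 0.970 for Lipe, 0.984 for Cidec and 0.97495 for Plin1. The relation also held around the group means, where r was 0.980, 0.994 and 0.987, and 24 of the 32 members had an r above 0.8 there.

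Among the lipogenic genes Fasn had a rho of 0.917, about the median of the members (0.9175), and some others followed Adipoq less closely. Thrsp had 0.884, Acaca 0.855, Me1 0.796, Acly 0.716 and Elovl6 0.504. Mlxipl, at 0.642, and Dgat2, at 0.647, were intermediate. Slc2a4 (0.471), Ucp1 (0.425), Cidea (0.177) and Dgat1 (0.0442) lay at the bottom of the list. Ucp1 and Cidea vary over few counts or a narrow range, but Dgat1 varied 6.19-fold between libraries. Dgat1 was most alike, over the 21 libraries, to Klhl2 (rho = 0.912), Tgm2 (0.897) and Stx11 (0.896), which were picked after the values were seen as the closest genes by rank correlation.

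**Figure D3:**
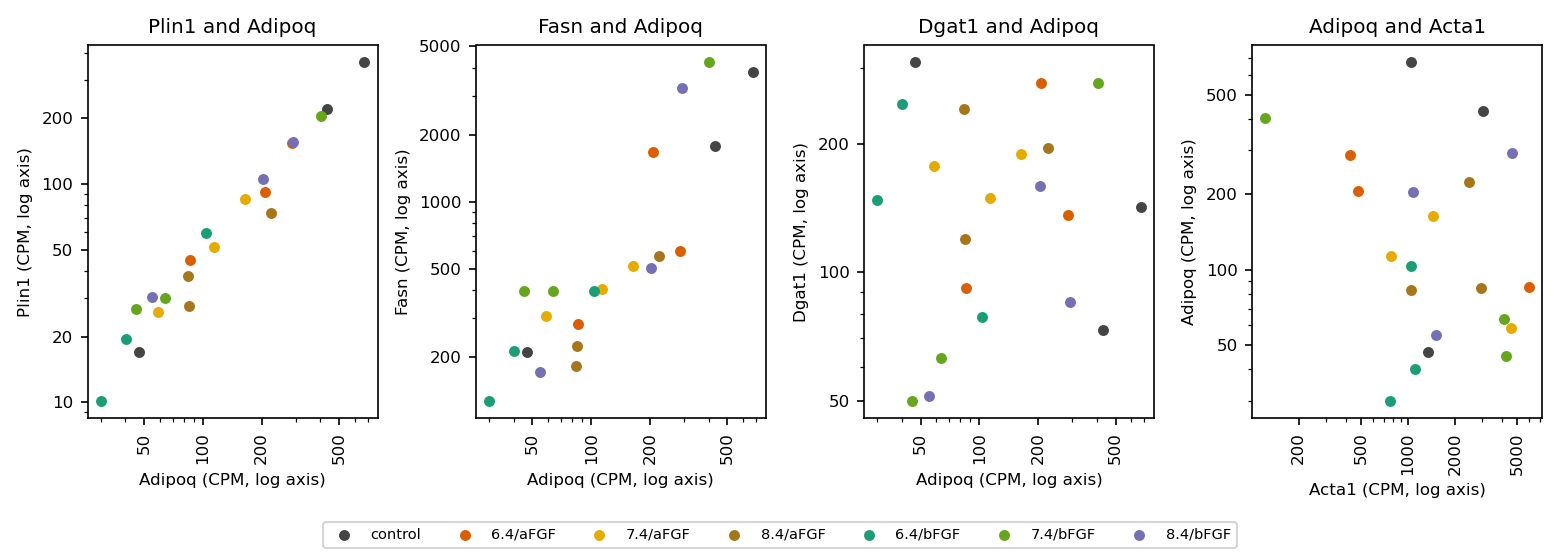
Levels in the 21 libraries (points, coloured by group) on log axes in CPM, for Plin1, Fasn and Dgat1 against Adipoq and for Adipoq against Acta1, an actin of skeletal muscle. Plin1 follows Adipoq along a line (rho = 0.969), Fasn does so with more scatter (rho = 0.917), Dgat1 does not (rho = 0.0442), and Adipoq falls with Acta1 no more than the scatter allows (r = -0.292).

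Markers of other tissues in the wound moved too. Mouse skin has a layer of skeletal muscle under it, the panniculus carnosus, but the source of the muscle RNA here was not tested. The 12 skeletal muscle markers summed to 298 CPM in 7.4/bFGF replicate 3 and to 19035 CPM in 6.4/aFGF replicate 3. Acta1, the highest of them, was at 122 CPM in 7.4/bFGF replicate 3, where Adipoq was 404.5 CPM, but at 4672 CPM in 8.4/bFGF replicate 1, where Adipoq was 291 CPM. Over the 21 libraries Adipoq and Acta1 had r = -0.292 (permutation p = 0.199) and rho = -0.210 (permutation p = 0.358). Without 2 libraries farthest from the median of Acta1 r was -0.118, and around the group means it was -0.440 (permutation p within groups = 0.117). Slc2a4 was the one member with a positive correlation with Acta1 at an unadjusted p under 0.05 (r = 0.494, permutation p = 0.0218, rho = 0.551, permutation p = 0.0108, adjusted p over 15810 relations = 0.173 for rho, r = 0.660 without 2 libraries). Dgat1 had r = -0.559 (permutation p = 0.0084) and rho = -0.492 (permutation p = 0.0254, adjusted p = 0.264).

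The 8 adipocyte markers, all of them members, summed to 269 to 7216 CPM. Sebaceous gland markers (11 genes) summed to 455 to 863 CPM, with 709, 717 and 863 CPM in the control, so control replicate 2 was not low in them. The highest of them, Mgst1, was however correlated with Adipoq (rho = 0.930). Adipocyte progenitor markers (6 genes, led by Pi16, Ly6a and Pdgfra) summed to 1081, 1790 and 1760 CPM in the control and to 805 to 2043 CPM in all. Endothelial markers (9 genes) summed to 520 to 1402 CPM, macrophage markers (8 genes) to 5010 to 10956 CPM and hair follicle markers (10 genes) to 4.17 to 21.4 CPM. Brown fat markers (8 genes, of which Ucp1 and Cidea are members) summed to 24.2 to 139 CPM and were highest in 6.4/aFGF replicate 3, the library with most muscle RNA.

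Epithelial markers of the mammary gland, which lies in the fat pad under female skin, were high and low in the same control libraries as the adipocyte genes. The 8 markers summed to 324, 5.75 and 105 CPM in control replicates 1, 2 and 3 and to 2.99 to 224 CPM in the hydrogel libraries. Among the latter the parallel was partial. In 7.4/bFGF replicate 3 both sums were high, at 191 CPM for mammary and 5612 CPM for adipocyte markers. In 8.4/bFGF replicate 1 they were 11.1 and 2844 CPM, and in 7.4/aFGF replicate 1 they were 224 and 1750 CPM. The mammary markers were led by Krt8, Prlr and Krt18, which were all highest in control replicate 1, at 101, 87.7 and 87.1 CPM. The milk protein genes Csn2 and Wap had 0 counts in 18 and 19 of the 21 libraries and at most 0.177 and 0.132 CPM. Of 8 liver markers in the files, which summed to 8.73 to 777 CPM, Cyp2e1, which adipocytes also express, had 757 CPM in control replicate 1 and was correlated with Adipoq (rho = 0.910). Alb, the defining liver gene, reached 138 CPM in 8.4/aFGF replicate 2 and had a median of 2.28 CPM. The part of these tissues in the levels of the 33 genes was not tested.

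The comparison of the 18 hydrogel libraries with the 3 control libraries asks how wounds with any loaded hydrogel differed from wounds without one. Members were lower with hydrogel in 32 of 33 cases, by a median of 1.09 on the log2 scale, but edgeR called 0 of 33. Most members rose and fell together over the libraries, so counts of members by direction, here and below, are not independent observations. A call needed a Benjamini-Hochberg adjusted p below 0.05 together with an absolute log2 fold change above 0.58. Of all genes tested, 0.00632% were called (1 gene), and the median log2 fold change of all genes was -0.02. An unadjusted p under 0.05 was found for 20 members by edgeR and for 19 by DESeq2, which called 0 members as well. For 0 members did all hydrogel libraries lie outside the range of the control libraries on one side, against 0.607% of all genes tested.

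Thrsp had the largest difference, with a log2 fold change of -2.39 (SE 0.83, 95% interval -4.14 to -0.65, edgeR adjusted p = 0.189). Among the secreted factors Adipoq had -1.55 (SE 0.61, edgeR adjusted p = 0.231), Cfd -1.53, Retn -1.48 and Lep -0.86. The droplet genes had -1.67 (Plin1), -1.42 (Cidec), -0.74 (Plin4) and -0.60 (Cidea), and the lipases -1.13 (Lipe) and -0.98 (Pnpla2). In the uptake and transport group Aqp7 had -1.69, Lpl -1.58, Acsl1 -1.29, Cd36 -1.09, Fabp4 -1.04 and Slc2a4 -0.72. Triglyceride synthesis split into Pck1 at -1.60, Gpd1 at -1.39, Dgat2 at -0.95 and Dgat1 at -0.23. Besides Thrsp, the fatty acid synthesis genes had -1.63 (Fasn), -1.08 (Scd1), -0.87 (Me1), -0.87 (Acaca), -0.45 (Elovl6) and -0.32 (Acly). Cebpa had the smallest adjusted p of the members, at 0.147 by edgeR, with a log2 fold change of -0.71 (SE 0.20), beside -1.35 for Pparg and -0.99 for Mlxipl. Car3 had -1.52 and Adrb3 -1.77, and Ucp1 alone was positive, at 0.20 (95% interval -1.24 to 1.63). None of these passed the test, and the intervals of 20 members lay below 0.

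The outcome turned on which control library was in the fit. Without control replicate 2, edgeR called 16 members lower, against 3.78% of all genes called lower (608 of 16069), and the members' median was -1.57. The largest among the 16 were Thrsp (-2.95), Aqp7 (-2.23), Plin1 (-2.21), Lpl (-2.09) and Adipoq (-2.07), and the smallest adjusted p was that of Pparg (log2 fold change -1.84, SE 0.35, edgeR adjusted p = 0.00877). The rest were Cfd, Lipe, Pnpla2, Cd36, Acsl1, Dgat2, Gpd1, Cebpa, Mlxipl and Car3. Thrsp was the only one of the 7 fatty acid synthesis genes among them, and Fasn had -2.16 (edgeR adjusted p = 0.0759). Without control replicate 1 the members' median was -0.55, 1 member had an unadjusted p under 0.05 and 0 were called. Without control replicate 3 the median was -1.12 and 0 were called. The control group held libraries with high and with low adipocyte gene levels, as 7.4/bFGF and 8.4/bFGF did, and a group of 3 does not show which is usual for this wound.

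**Figure D4:**
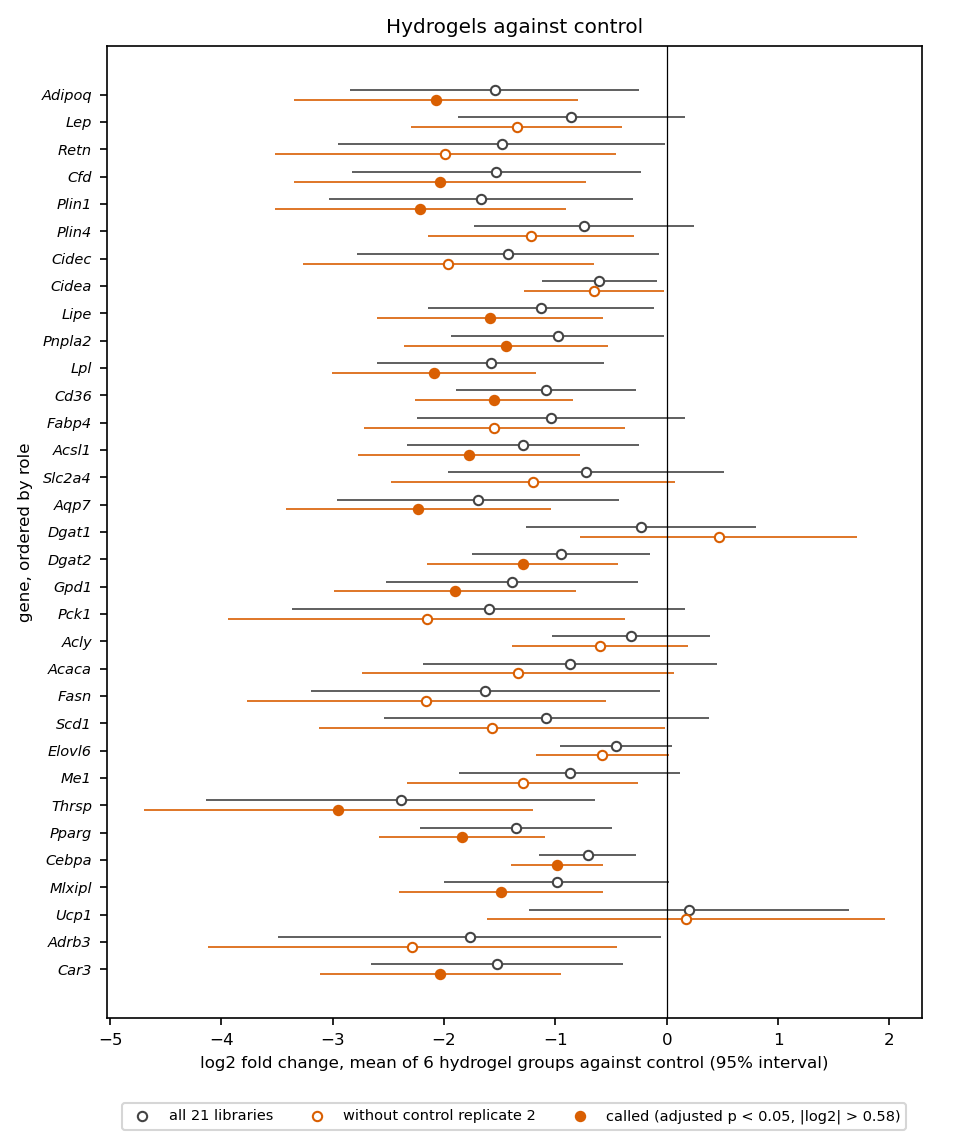
Log2 fold change of the mean of 6 hydrogel groups against the control for each of the 33 genes, with its 95% interval, for all 21 libraries (grey) and without control replicate 2 (orange). Filled points were called by edgeR (by the thresholds given in the text). With all libraries 0 of 33 are filled, and without control replicate 2 there are 16, all lower with hydrogel.

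The difference was small relative to Adipoq, itself a member that was lower with hydrogel (log2 fold change -1.55). Most members followed Adipoq, so a covariate made of it was bound to shrink their differences. When the log2 CPM of Adipoq was added to the model as a covariate, an alternative chosen after the data had been seen, the median of the other 32 members in hydrogels against control was -0.07, with 14 positive and 18 negative. The largest were Cidea (-0.65), Pck1 (0.46) and Ucp1 (0.46), and edgeR called 0 of 32, against 0.00633% of all genes (1), with an unadjusted p under 0.05 for 4 members.

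In aFGF against bFGF, averaged over the 3 pH values, the members as a whole did not differ beyond their spread. Their median log2 fold change was 0.11, with 18 positive and 15 negative, and it was -0.02 without 7.4/bFGF replicate 2 and 0.37 without 7.4/bFGF replicate 3. Here edgeR called 0 of 33, against 3.20% of all genes tested (506 of 15811). No member had an unadjusted p under 0.05 by edgeR, 1 had by DESeq2, and DESeq2 called 0. Of the 7 fatty acid synthesis genes 6 had a negative value, none of which passed the test, from -0.35 for Acly to -1.01 for Thrsp (SE 0.75, 95% interval -2.60 to 0.58), and Elovl6 had 0.22. At pH 6.4 alone all 7 were positive, with a median of 1.30. Ucp1 had 0.90, Cidec 0.55 and Plin4 0.50 over all pH values. The intervals were wide, and Adipoq itself had 0.21 (95% interval -0.90 to 1.32).

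Relative to Adipoq and averaged over the pH values, Me1 and Thrsp had lower estimates with aFGF than with bFGF. For Thrsp this did not hold at pH 6.4, where its mean log2 ratio to Adipoq was -1.67 with aFGF and -2.35 with bFGF. In the model with the Adipoq covariate, chosen after the data had been seen, edgeR called both genes. Me1 had a log2 fold change of -0.86 (SE 0.19, 95% interval -1.26 to -0.46, edgeR adjusted p = 0.0124). Thrsp had -1.17 (SE 0.36, 95% interval -1.93 to -0.41, edgeR adjusted p = 0.0433). These were 2 of 32 members against 4.07% of all genes called, which does not set the members apart from all genes. Dgat2 (-0.55, adjusted p = 0.0496) and Cidec (0.31, adjusted p = 0.0224) passed the adjusted p in edgeR but not the fold change of 0.58. Fasn had -0.79 (adjusted p = 0.0761) and Acaca -0.68 (adjusted p = 0.0897) in edgeR and were not called. Me1 was called when any of the 21 libraries was left out, with a log2 fold change between -0.94 and -0.63. Thrsp was called in 4 of the 21 fits and had an edgeR adjusted p between 0.0250 and 0.122 in the 21. Its log2 fold change was -0.73 without 8.4/bFGF replicate 1 and between -1.35 and -1.01 without any other library. Without the 3 libraries set apart Me1 (-1.005), Thrsp (-1.59) and Fasn were called, against 3.68% of all genes.

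The group means of the ratio to Adipoq were lower with aFGF at each pH for Me1, but only at pH 7.4 and 8.4 for Thrsp. The log2 ratio of Thrsp to Adipoq was -1.45, -1.77 and -1.78 in 6.4/aFGF and -1.33, -3.48 and -2.24 in 6.4/bFGF. The log2 ratio of Me1 to Adipoq in CPM was -0.39, -1.55 and -0.11 in 6.4/aFGF, -1.09, -0.60 and -0.06 in 7.4/aFGF and -1.50, -0.59 and -0.58 in 8.4/aFGF. With bFGF it was -0.42, 0.83 and 0.48 at pH 6.4, 0.48, 1.07 and 0.04 at pH 7.4 and 0.53, -0.65 and 0.18 at pH 8.4. All 9 libraries with aFGF had a negative ratio and 7 of 9 with bFGF a positive one, and the control had -1.09, 0.38 and -1.16. Me1 varied 7.90-fold between libraries and Adipoq 22.5-fold, so this ratio also depends on the level of Adipoq. In CPM, Me1 at pH 6.4 was higher in every aFGF library than in every bFGF library. Fasn had its highest ratios in 7.4/bFGF (2.64, 3.13 and 3.39) and in single libraries elsewhere (3.48 in 8.4/bFGF replicate 1, 3.01 in 6.4/aFGF replicate 1), and its lowest group mean in 8.4/aFGF (1.29 ± 0.14, SD, n = 3). Of the droplet genes, Cidec and Plin1 had the narrowest ratios to Adipoq, between 0.04 and 0.86 for Cidec and between -1.62 and -0.76 for Plin1 on the log2 scale. The ratio ran from -0.63 to 1.22 for Plin4 and from -6.21 to -1.82 for Cidea. For Cidec the ratio was 0.83, 0.69 and 0.52 in 6.4/aFGF against 0.29, 0.09 and 0.17 in 6.4/bFGF. Across all members the SD of the log2 ratio had a median of 0.632.

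**Figure D5:**
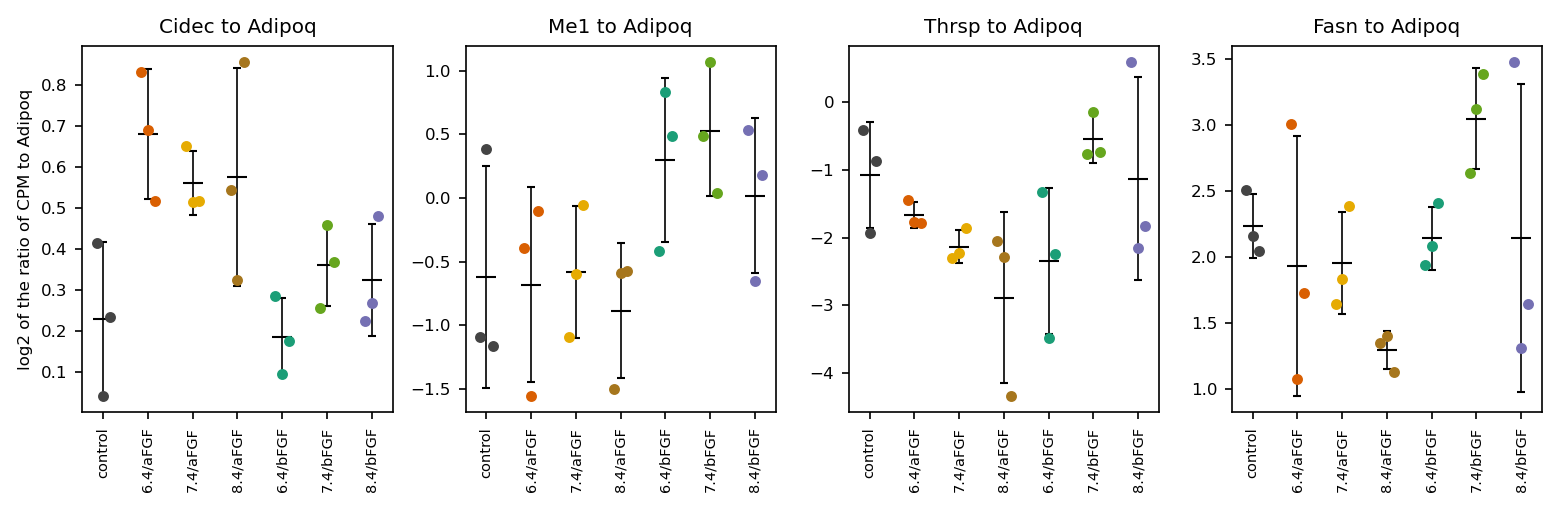
Log2 ratio of the CPM of Cidec, Me1, Thrsp and Fasn to that of Adipoq in each library, by group, with the group mean and SD (n = 3). Me1 is negative in all 9 libraries with aFGF and positive in 7 of 9 with bFGF, and Fasn is highest in 7.4/bFGF with a mean of 3.05.

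At pH 6.4 all 33 members were higher in 6.4/aFGF than in 6.4/bFGF, by a median of 1.62 on the log2 scale, yet edgeR called 0 of 33, as it called 0% of all genes. Since most members follow each other from library to library, a single library can move many of them, in direction and in overlap. By edgeR 9 members had an unadjusted p under 0.05 and by DESeq2 18, and DESeq2 called 0 members. For 12 members the groups did not overlap (Lep, Cfd, Plin4, Cidea, Pnpla2, Lpl, Gpd1, Me1, Mlxipl, Ucp1, Adrb3 and Car3), against 14.5% of all genes tested. Plin4 had the smallest unadjusted p, with a log2 fold change of 2.11 (SE 0.68, edgeR adjusted p = 0.671), and Pck1 the largest difference, at 3.02 (SE 1.34). Adipoq had 1.74, Cidec 2.23, Fasn 1.79 and Scd1 1.86. Dgat1 and Dgat2 had 0.09 each. Leaving out each library in turn, the median stayed between 1.29 (without 6.4/bFGF replicate 2, the library with the lowest levels) and 2.19.

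At the other pH values most estimates had the opposite sign. At pH 7.4 28 of 33 members were lower with aFGF, by a median of 0.68 (log2 fold change -0.68), and edgeR called 0, against 0.0759% of all genes (12). Only Me1 had an unadjusted p under 0.05 there by edgeR (log2 fold change -1.53, adjusted p = 0.311), 3 members had by DESeq2, and DESeq2 called 0. The groups did not overlap for 5 members (Slc2a4, Gpd1, Me1, Thrsp and Mlxipl, all lower in 7.4/aFGF), a share of the members below the 20.0% of all genes tested. The median rested on 7.4/bFGF replicate 3, without which it was 0.33. At pH 8.4 29 of 33 were lower with aFGF, with a median of -0.70, and edgeR called 0, against 0.0632% of all genes (10). Again Me1 alone had an unadjusted p under 0.05 by edgeR (log2 fold change -1.68, adjusted p = 0.187), 2 members had by DESeq2, and DESeq2 called 0. Here 0 members had groups without overlap, against 26.9% of all genes tested, and the median was 0.02 without 8.4/bFGF replicate 1.

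For pH 6.4 against pH 7.4 the members went in opposite directions with the 2 factors. With aFGF 30 of 33 were higher at pH 6.4, by a median of 0.74, and 0 had an unadjusted p under 0.05 by edgeR or DESeq2. That median was 0.39 without 6.4/aFGF replicate 2. Pck1 had the largest difference, at 2.08, and Gpd1, Me1 and Car3 did not overlap between the groups, against 10.8% of all genes tested. With bFGF 32 of 33 were lower at pH 6.4, by a median of 1.56 (log2 fold change -1.56), and an unadjusted p under 0.05 was found for 13 members by edgeR and for 16 by DESeq2. Adrb3 (-2.82), Fasn (-2.77) and Thrsp (-2.62) had the largest differences and Mlxipl the smallest unadjusted p (log2 fold change -2.19, edgeR adjusted p = 0.624). For 8 members the groups did not overlap (Plin4, Slc2a4, Gpd1, Acly, Me1, Mlxipl, Ucp1 and Car3), against 15.1% of all genes tested. The median was -0.36 without 7.4/bFGF replicate 3. Both edgeR and DESeq2 called 0 members in either comparison, and edgeR called 0% of all genes in both.

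The test of the difference between these pH effects, the interaction of pH and factor, had a positive estimate for 32 of 33 members with a median of 2.38. Unadjusted p was under 0.05 for 15 members by edgeR and for 20 by DESeq2, led by Gpd1 (3.46, edgeR adjusted p = 0.880), and neither tool called a member. Here edgeR called 0% of all genes. Without 7.4/bFGF replicate 3 the median was 1.08. These comparisons share groups, so their directions are not independent of each other.

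Between pH 8.4 and pH 7.4 the members had medians of -0.01 with aFGF (16 positive, 17 negative) and -0.11 with bFGF (13 positive, 20 negative). By edgeR and by DESeq2 0 members had an unadjusted p under 0.05 and 0 were called, and edgeR called 0% of all genes in each. The groups overlapped for every member, against 8.62% of all genes without overlap with aFGF and 11.7% with bFGF. Lep had the largest differences in the positive direction in both, at 0.84 (95% interval -0.60 to 2.28) with aFGF and 1.17 with bFGF. The interaction of this pH contrast with the factor had a median of 0.17, with 0 members at an unadjusted p under 0.05 by either tool and 0% of all genes called by edgeR. With aFGF the median lay between -0.36 and 0.22 when single libraries were left out. Without 7.4/bFGF replicate 3 the median with bFGF was 1.12 and that of the interaction -0.98. Over all 7 groups, edgeR called 0 members and 0.114% of all genes (18), with an unadjusted p under 0.05 for Me1 and Gpd1. DESeq2 called those 2 members, against 10.8% of all genes (2030 of 18714; adjusted p = 0.0400 for Me1 and 0.0427 for Gpd1), among 14 with an unadjusted p under 0.05.

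Genes of the same pathways outside the 33 were less variable in sum. The 20 other adipocyte and lipid storage genes, among them the droplet protein gene Plin2, summed to 2150 to 3809 CPM. Fabp5, Cebpb and Plin2 had the highest CPM of the list, so the sum does not show how its lower genes varied. Trarg1, picked after its values were seen, ran from 6.02 to 86.6 CPM, with 86.6, 10.1 and 55.0 CPM in the control replicates. In hydrogels against control these 20 genes had a median log2 fold change of -0.44, with 17 negative and 0 called. In aFGF against bFGF over all pH values their median was 0.08 with 0 called, and at pH 6.4 it was 0.87 with 17 positive and 0 called. The 12 other fatty acid synthesis genes summed to 772 to 1701 CPM, highest in 7.4/bFGF replicate 3, as for Fasn. Their median in hydrogels against control was -0.33 with 0 called. In aFGF against bFGF over all pH values edgeR called 2 of the 12, both lower with aFGF, against 3.20% of all genes tested. These were Scd2, a desaturase of many tissues, at -0.85 (SE 0.21, edgeR adjusted p = 0.0211), and Fads2, the delta-6 desaturase, at -0.61 (SE 0.13, edgeR adjusted p = 0.0123). This was without the Adipoq covariate, and 9 of the 12 were negative with a median of -0.27. The 18 sterol synthesis genes, targets of the related factor SREBP2, stayed within 784 to 1124 CPM in sum, with a median of -0.04 in hydrogels against control, of -0.14 in aFGF against bFGF and 0 called in either. In the remaining 10 comparisons edgeR called 0 genes of these 3 lists.

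In the same comparison of aFGF with bFGF, where edgeR called 3.20% of all genes tested, the marker lists held further calls by edgeR, all in lists for other tissues. By edgeR, Dio2 (1.95, adjusted p = 0.0212) and Ppargc1a (1.58, adjusted p = 0.0300) of the brown fat list were higher with aFGF, while Ucp1 and Cidea were not called. Dio2 activates thyroid hormone and Ppargc1a is a coactivator that muscle expresses as well. Of the 8 liver genes tested 5 were higher with aFGF (Ttr, Apoa1, Alb, Ahsg and Apoa2), and all 5 were highest in 8.4/aFGF replicate 2. Tchh, a hair follicle gene, was lower (-1.28, edgeR adjusted p = 0.0193). The part of these tissues in the members' values was not tested.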

How the data were processed

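RNA of 21 wound samples, 3 in each of 7 groups, had been extracted with TRIzol and sequenced from stranded mRNA libraries. The authors deposited whole-number read counts per gene, not normalized, in 1 file per sample, beside FPKM values. The authors computed FPKM as counts per gene length and library total (checked on 13158 genes with at least 20 counts in every library, to within 5.57e-06%). The submitters' processing notes name the build GRCm39. The aligner, counter and annotation were not given in the sources used here, and the study names no test for its sequencing data. Of 18806 symbols, 18662 (99.2%) and all 33 members matched a RefSeq table of another build, which was used for names only, so no coordinate or sequence is given.

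Counts were fitted in edgeR 4.0.16 (R 4.3.3) with TMM factors (0.898 to 1.11), its default filter on low counts by group, a mean for each of the 7 groups and the quasi-likelihood test. Totals of 34362558 to 37817833 counts set the precision, and limits from counts cover counting error only. Groups and replicates came from the labels. Replicates of a group differed beyond sampling noise (a chi-square per degree of freedom of at least 17.2), so none was merged. Spread and correlation used log2(CPM + 0.05), with 100000 permutations. Alternatives were DESeq2 1.42.0, limma 3.58.1 on log2(FPKM + 1) and log2(FPKM + 0.1) at a mean FPKM of at least 1, other factors, filters and libraries, and a replicate block. An Adipoq covariate was added after seeing the data. The code was tested on simulated data.

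The members, lists and tests were chosen with earlier results of these data known. Every member is named with a value. The genes given by library were Adipoq, Plin1, Fabp4, Lpl, Fasn, Scd1, Pparg and Ucp1 and any member called in the main comparisons, and the rest are given by range. Of the genes outside that rule, Me1, Dgat1, Trarg1 and the genes closest to Dgat1 are marked as picked after their values were seen. The ratios to Adipoq given by library and the milk protein genes Csn2 and Wap also lie outside it. Python 3.11.15 with numpy 2.4.6 and pandas 2.3.3 was used for the descriptions.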

Additional observations from a re-analysis of the deposited data

How the results depend on the processing

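The number of members called was 0 in all 12 comparisons and stayed 0 with other normalization factors, without a filter, with only the libraries compared, without a fold threshold, with limma on FPKM and without the 3 libraries set apart. It changed in 4 cases. DESeq2 called 2 over the 7 groups, and the added Adipoq covariate gave 2 in aFGF against bFGF over all pH values. When single libraries were left out, the number was 0 to 1 over the 7 groups and 0 to 16 in hydrogels against control, in both cases with the highest number without control replicate 2. With the Adipoq covariate the log2 fold change in hydrogels against control turned positive for Lep (0.22), Plin1 (0.096), Plin4 (0.36), Cidec (0.26), Pnpla2 (0.072), Fabp4 (0.33), Pck1 (0.46), Acly (0.13), Acaca (0.28), Fasn (0.071), Scd1 (0.23), Me1 (0.0092) and Mlxipl (0.053), none of them called. In the model without that covariate, leaving out each library, the log2 fold change in hydrogels against control ranged from -0.60 to 0.47 for Dgat1 and from -0.60 to 0.040 for Acly. The causes were not tested.

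With the replicate number as a block (replicate block) 0 members were called in every comparison. The numbers pair nothing by the labels, and same-numbered libraries of different groups had a median correlation of deviations of 0.00889 over 63 pairs (14 above 0.1), against -0.00819 over 126 other pairs. Over all genes, aFGF against bFGF gave 506 calls in edgeR, 777 with DESeq2, 1702 without the fold threshold, and 212 and 338 with limma at the pseudocounts 1 and 0.1. Elsewhere DESeq2 called 171 against 1 (hydrogels), 22 against 0 (factors at pH 6.4), 224 against 12 (pH 7.4), 555 against 10 (pH 8.4), 19, 3, 31, 3, 3 and 2 against 0 in the remaining contrasts, and 2030 against 18 over the 7 groups. Without control replicate 2 hydrogels against control gave 1189.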
